A study of Arabidopsis thaliana and Marchantia polymorpha and Mesotaenium endlicherianum with 120 samples.

Results

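The major light-harvesting complex of photosystem II (LHCII) is the trimeric antenna of thylakoid membranes, and its subunits are encoded in Arabidopsis by the LHCB1, LHCB2 and LHCB3 genes. The 9 genes described here include the 5 LHCB1 copies CAB1 (AT1G29930), CAB2 (AT1G29920), CAB3 (AT1G29910), LHB1B1 (AT2G34430) and LHB1B2 (AT2G34420). The 3 LHCB2 copies are LHCB2.1 (AT2G05100), LHCB2.2 (AT2G05070) and LHCB2.3 (AT3G27690), and LHCB3 (AT5G54270) is a single gene. They were chosen by identifier, as family members, from the 32833 rows of the Arabidopsis count table, and all 9 passed the filter on low counts. The study measured transcripts by RNA-seq in Arabidopsis and 3 other green organisms kept under combinations of temperature and light. The Arabidopsis plants were seedlings of 7 days, grown for 2 days at 20 °C under 100 µmol m-2 s-1 and for another 5 days at 16 or 24 °C under 10 or 100 µmol m-2 s-1, all in continuous white light. Here cool means 16 °C, warm 24 °C, dim light 10 µmol m-2 s-1 and bright light 100 µmol m-2 s-1. Each of these 4 conditions was applied to the wild type Col-0 and to the mutant lines Atpif4-2, Atphyb-9 and Athy5-2. These are named for the growth-promoting transcription factor PIF4, the photoreceptor phytochrome B and the light-signalling transcription factor HY5. This gave 16 groups of 3 libraries, 48 libraries in all. Each mutated gene is represented by 1 line. Nothing in the labels says whether the 3 libraries of a group came from separate cultures, so p-values measure the spread between libraries, which may be technical.

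LHCII proteins bind most of the chlorophyll of the thylakoid membrane and pass the absorbed energy to the reaction centres, mainly to photosystem II. The genes are nuclear, their proteins are imported into the chloroplast, and their transcription is a classical output of phytochrome and of the GLK transcription factors. LHCB1 and LHCB2 proteins are the mobile, phosphorylatable part of the antenna, whereas LHCB3 lacks the phosphorylated threonine. Plants grown in stronger light usually carry a smaller antenna.

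The copies differ little from each other, so the ends of their coding sequences are shown first, because the split of reads between copies rests on such differences. They are the last 90 coding bases, 5′ to 3′, read by script from the RefSeq TAIR10.1 genome, with bases unlike the most frequent base of the same family at that position in capitals.
CAB1: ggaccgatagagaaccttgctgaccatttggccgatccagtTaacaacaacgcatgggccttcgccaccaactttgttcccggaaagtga
CAB2: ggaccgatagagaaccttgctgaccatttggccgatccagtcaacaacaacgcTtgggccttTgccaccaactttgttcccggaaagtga
CAB3: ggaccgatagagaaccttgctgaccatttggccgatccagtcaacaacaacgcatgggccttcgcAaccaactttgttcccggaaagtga
LHB1B1: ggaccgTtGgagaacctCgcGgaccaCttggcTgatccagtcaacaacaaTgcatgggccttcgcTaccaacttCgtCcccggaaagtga
LHB1B2: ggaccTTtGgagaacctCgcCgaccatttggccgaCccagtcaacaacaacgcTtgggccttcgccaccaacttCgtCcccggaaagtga
LHCB2.1: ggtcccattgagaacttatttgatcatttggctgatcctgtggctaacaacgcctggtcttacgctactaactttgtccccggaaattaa
LHCB2.2: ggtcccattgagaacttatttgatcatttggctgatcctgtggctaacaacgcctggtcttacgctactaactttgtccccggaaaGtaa
LHCB2.3: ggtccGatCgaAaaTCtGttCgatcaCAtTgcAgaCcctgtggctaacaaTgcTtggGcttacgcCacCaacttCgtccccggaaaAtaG

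In this window CAB1 and CAB3 each carried 1 base unlike the family and CAB2 carried 2, while LHB1B1 had 10 and LHB1B2 had 9. LHCB2.2 carried 1 capital, and LHCB2.3 carried 20. At the base marked in LHCB2.2 the LHCB2 copies all differ (t, G and A). No base is most frequent there, and leaving that of LHCB2.1 in lower case is arbitrary. Over the whole coding sequence, identity was 86.8% to 96.4% within LHCB1, 84.4% to 96.6% within LHCB2 and 69.8% to 73.2% between the LHCB1 and LHCB2 copies. LHCB3 matched the others at 64.5% to 68.0% of bases. Between 87.6% (LHCB2.2) and 100% (LHCB2.3 and LHCB3) of the 100-base windows of each transcript occurred in no other member, 100 bases being the read length that the labels give. Values of single copies therefore carry an uncertainty from reads shared between near-identical copies, and the sums over the LHCB1 and the LHCB2 rows are given beside them.

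In TAIR10.1 coordinates CAB1 lies at chr1:10477885-10479114 on the plus strand, next to CAB2 (chr1:10474656-10475969) and CAB3 (chr1:10472280-10473502) on the minus strand. LHB1B1 (chr2:14524607-14525918, plus) and LHB1B2 (chr2:14522524-14523568, minus) are neighbours. LHCB2.1 (chr2:1822990-1824480) and LHCB2.2 (chr2:1799234-1800472) lie on the minus strand of the same chromosome. LHCB2.3 is at chr3:10255906-10257489 (plus) and LHCB3 at chr5:22038165-22039568 (plus). The LHCB1 transcripts have 1 exon, the LHCB2 transcripts 2 and the LHCB3 transcript 3. A gene on the other strand overlaps 8.78% of CAB1, 37.6% of LHCB2.3 and 13.3% of LHCB3. A non-coding antisense gene, AT2G08665, covers 100% of LHB1B2. How the authors' counting used strand is not given in the sources used here, so in these stretches reads of a member and of its partner cannot be told apart.

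Promoters are shown for CAB1, CAB2, LHB1B1 and LHCB2.3, because only these 4 of the 9 held a match to the CCA1-binding element or to the G-box. The window searched ran from 250 bases before to 50 after the annotated start. The printed stretch runs from 120 bases before to 30 after the start, 5′ to 3′ on the gene's strand, from RefSeq TAIR10.1. Capitals mark matches to AAAAATCT or AACAATCT (the CCA1 element in both its forms) or to CACGTG (the G-box) on either strand.
CAB1, chr1:10477765-10477914, plus strand: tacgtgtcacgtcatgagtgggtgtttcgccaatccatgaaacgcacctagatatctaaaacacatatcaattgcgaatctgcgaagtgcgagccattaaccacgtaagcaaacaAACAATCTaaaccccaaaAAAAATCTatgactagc
CAB2, chr1:10475940-10476089, minus strand: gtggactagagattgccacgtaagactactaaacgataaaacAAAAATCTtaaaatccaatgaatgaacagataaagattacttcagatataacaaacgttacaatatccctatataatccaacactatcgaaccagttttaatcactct
LHB1B1, chr2:14524487-14524636, plus strand: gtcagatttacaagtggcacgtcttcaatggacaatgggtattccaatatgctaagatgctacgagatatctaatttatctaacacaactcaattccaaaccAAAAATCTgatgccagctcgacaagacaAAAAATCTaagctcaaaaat
LHCB2.3, chr3:10255786-10255935, plus strand: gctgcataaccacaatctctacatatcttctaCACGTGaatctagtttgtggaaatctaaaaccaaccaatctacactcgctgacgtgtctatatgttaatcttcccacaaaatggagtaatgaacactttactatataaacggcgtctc

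AAAAATCT was found in 3 of 9 members (CAB1, CAB2 and LHB1B1) and in 7.88% of the 27443 promoter windows of protein-coding genes. AACAATCT was found in CAB1 and in 2.24% of windows. CACGTG, the G-box bound by PIF and HY5 proteins, was found in LHCB2.3 alone among the 9 and in 7.68% of windows. The I-box GATAAG occurred in LHCB2.1 (14.6% of windows), and CACATG in CAB3 (12.9%). The evening element AAAATATCT occurred in none of the 9 (2.82%), and CCAAT in 9 of 9 (51.6%). These matches are descriptions of the letters in the window, and no binding was measured.

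Library totals ran from 30806701 to 44043446 counts, and the 9 genes held 2.18% to 14.6% of them. Ribosomal RNA rows took a median of 8.12% of counts in dim light (0.902% to 33.4%) and 0.874% in bright light (0.535% to 14.1%), so this share moved with light. It was highest in Athy5-2 in warm dim light (23.3% to 33.4%) and in Atphyb-9 under the same condition (12.6% to 26.1%). Levels below are CPM, counts relative to the library size scaled by TMM. Comparisons are log2 differences ± SE from edgeR's quasi-likelihood test over 22828 genes, called at a Benjamini-Hochberg adjusted p, written FDR, under 0.05. Scaling by total counts in place of TMM adds the same amount to every gene in a comparison, from -0.75 to 1.24 on the log2 scale over 28 comparisons. The comparisons in which a direction turned and either value passed had shifts of 0.44 (light at 16 °C in Col-0), 0.47 and 1.24 (light at 24 °C in Atphyb-9 and Athy5-2) and -0.75 (Athy5-2 minus Col-0 in warm dim light). The labels were checked on the targeted genes: PIF4 in Atpif4-2 differed from Col-0 by -1.02, -0.17 (adjusted p = 0.676), -1.72 and -1.87, in cool dim, cool bright, warm dim and warm bright light. In the same order, PHYB in Atphyb-9 differed by -0.40, -1.19, -0.41 and -0.34. HY5 in Athy5-2 differed by -0.20 (adjusted p = 0.406), -0.49, -1.16 and -1.97. Transcripts of the mutated gene were lower in 10 of these 12 comparisons. Lower values were not confined to the matching line. In Athy5-2, PHYB differed by -0.45 in cool dim light and -0.33 in cool bright light (adjusted p = 0.00055 and 0.0112). In warm dim light PIF4 differed by -1.16 in Atphyb-9 and -0.89 in Athy5-2, and in cool bright light by 1.66 and 0.70. HY5 was called lower in Athy5-2 only. These transcripts alone thus do not identify each line. The 6 green-tissue markers and the 10 root markers fixed as lists were present in each library (0 of them at 0), and the root markers summed to 111 to 450 CPM. In these bulk samples, fewer green cells and less transcript per cell cannot be told apart.

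LHB1B2 could not be read from its own row. That row held 0 counts in 24 of 48 libraries and up to 633199 in another. In Col-0 in cool dim light its 3 libraries held 128724, 0 and 633199 counts. The antisense row AT2G08665, which spans the same bases on the other strand, held 149613 to 1231427 counts in each library. LHB1B2 took at most 73.3% and at the median 0.112% of the counts of both rows together. The 2 rows together were far steadier. The highest over the lowest library of a group was 1.16 in deposited counts (1.31 at most) and 1.27 in CPM (1.60 at most), each at the median over groups. LHB1B2 passed edgeR's test in 0 of 35 comparisons, with 2 at an unadjusted p under 0.05, and DESeq2's in 5. Its replicate coefficient of variation was 156% at the median, against 8.98% to 14.9% for the other 8 members. Below, LHB1B2 locus means the sum of both rows, a reading chosen after seeing these counts. Which strand its reads came from cannot be told from the files. Adding the antisense row to the LHCB1 sum changed the call in 0 of 35 comparisons, but sizes of differences did change. In Col-0 in bright light the mean of the sum was 22579 CPM at 16 °C and 30609 CPM at 24 °C. With the antisense row these means were 25987 and 45172 CPM.

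**Figure D1:**
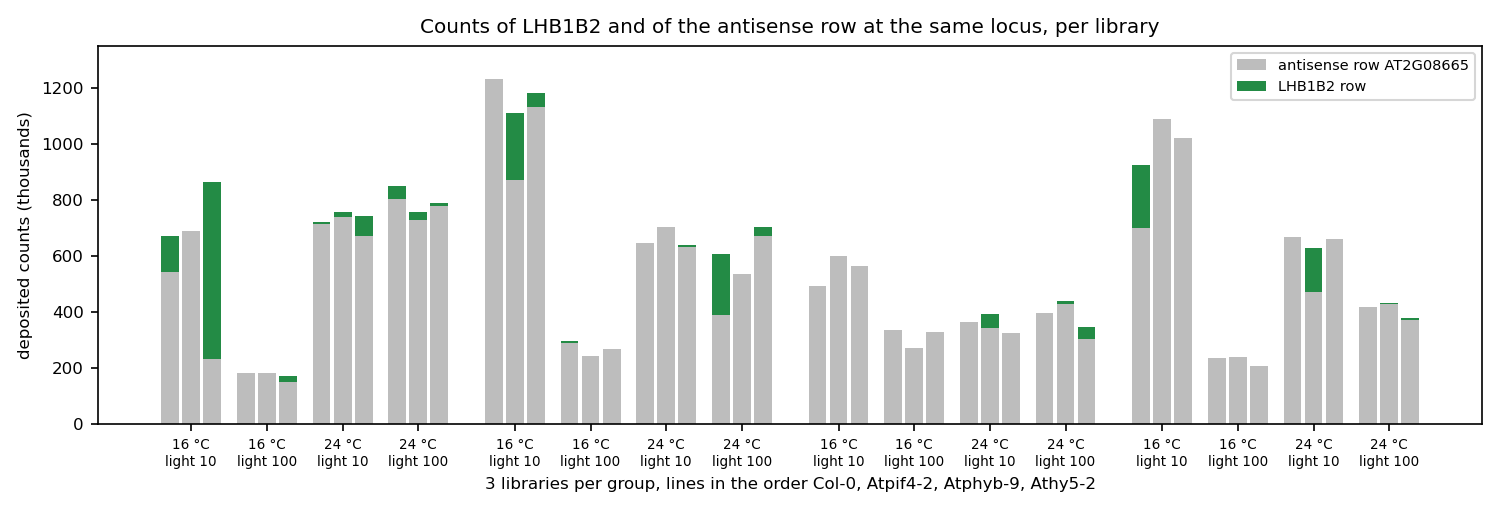
Deposited counts (vertical axis, in units of 1000) of the LHB1B2 row (green) stacked on the antisense row AT2G08665 (grey), 1 bar per library, with 3 bars per condition and lines in the order Col-0, Atpif4-2, Atphyb-9, Athy5-2. The green part jumps between libraries of 1 group, from 0 to 633199 counts in Col-0 in cool dim light, while the whole bars of a group differ by 1.31 times at most.

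Per kilobase of transcript, CAB1 stood above the other copies that could be read from their own rows. In Col-0 in cool dim light it was at 56774 CPM per kilobase, against 7875 for CAB2, 6939 for CAB3 and 5559 for LHB1B1. In the same group LHCB3 was at 2189.5 CPM per kilobase, LHCB2.2 at 2001, LHCB2.1 at 1549 and LHCB2.3 at 669. Over the 16 groups, the highest group mean was 24.1 times the lowest for LHB1B1, 19.4 times for CAB2 and 12.3 times for CAB1. It was 9.54 times for CAB3, 8.81 to 9.25 times for the LHCB2 copies and 7.13 times for LHCB3. Group means of the LHCB1 sum (the 5 LHCB1 rows) ran from 165799 ± 23970 CPM (SD, n = 3) in Athy5-2 in cool dim light to 13061 ± 1074 CPM in Athy5-2 in warm bright light. The highest and the lowest group were thus 2 conditions of 1 line. For this sum the 4 groups in cool dim light were the 4 highest, and the 3 lowest were Col-0 in cool bright light, Atphyb-9 in warm bright light and Athy5-2 in warm bright light. In its order from high to low, libraries of 10 of 15 neighbouring pairs of groups overlapped. The breaks came after Atpif4-2 in cool dim light, after Athy5-2 and Atpif4-2 in warm dim light, after Col-0 in cool bright light and after Atphyb-9 in warm bright light. With the antisense row added to this sum, Athy5-2 in warm dim light (118787 CPM) stood above Col-0 in cool dim light (116436 CPM). Libraries of these groups overlapped. Some breaks then fell after other groups, while the 3 lowest groups stayed the same. The LHCB2 sum was highest in Atphyb-9 in cool dim light (15946 ± 2338 CPM) and lowest in Athy5-2 in warm bright light (1901 ± 84.2 CPM). For it, 12 of the 15 neighbouring pairs of groups overlapped. LHCB3 was highest in Atpif4-2 in cool dim light (6676 ± 303 CPM) and lowest in Athy5-2 in warm bright light (937 ± 106 CPM).

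**Figure D2:**
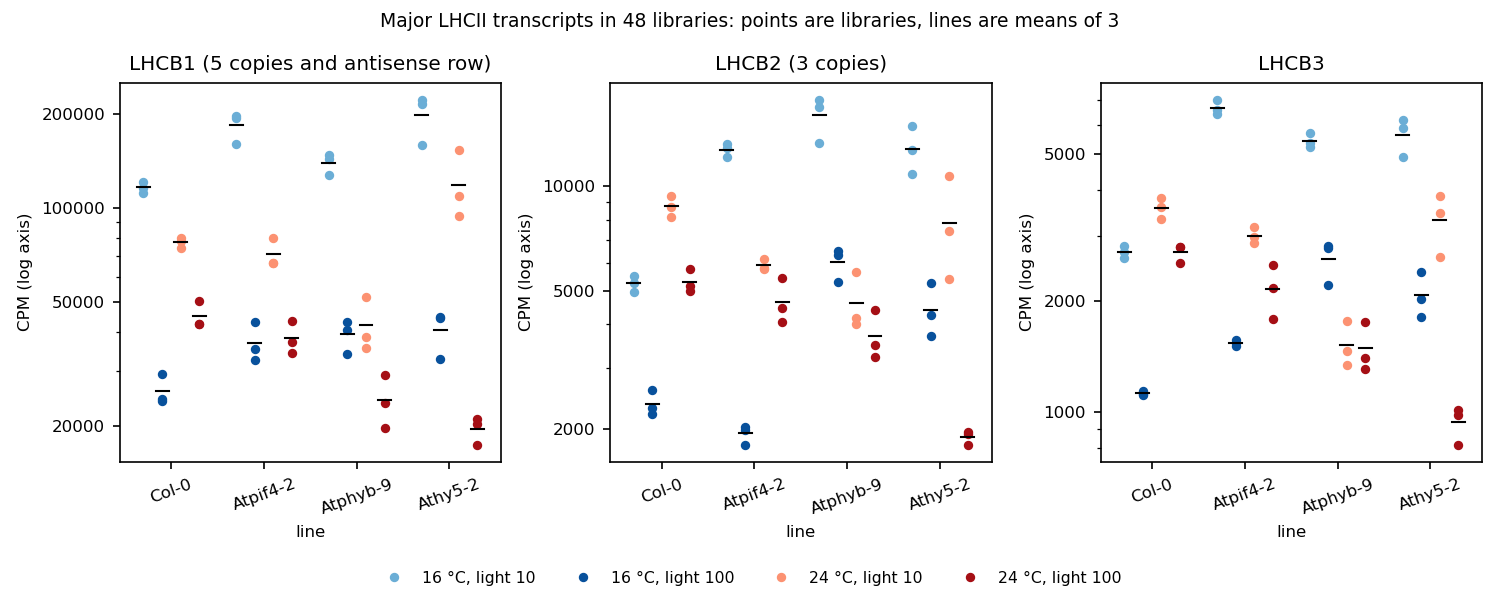
CPM on a log axis for the 5 LHCB1 rows with the antisense row of LHB1B2, for the 3 LHCB2 rows and for LHCB3, by line; points are libraries, black lines are means of 3, and colours mark temperature and light. In cool dim light (pale blue) the means of the 3 mutant lines sit above that of Col-0 in each panel, and Athy5-2 in warm bright light (dark red) has the lowest mean of each panel.

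In Col-0, seedlings in bright light held less LHCII transcript than seedlings in dim light. At 16 °C, 7 of the 9 genes were lower in bright light and none was higher, against 19.6% of all genes tested called lower. The members' median log2 difference was -1.73 and that of all genes 0.02. The 2 genes not called were LHCB2.3 and the LHB1B2 row. The 7 calls held without any 1 library, with the rRNA share as a covariate and under scaling by total counts. At 24 °C, 7 were again lower, against 14.4% of all genes, with a smaller median of -0.79. Of the LHCB1 copies, CAB1 was at 67636, 73816 and 68045 CPM in the 3 libraries in cool dim light and at 15778, 15392 and 18912 CPM in bright light, a 4.18-fold lower level (-2.06 ± 0.17, FDR 7.02e-13). At 24 °C it was at 44336, 43553 and 41349.9 CPM in dim light and 23520.3, 19322 and 19904 CPM in bright light (-1.04 ± 0.16, FDR 3.71e-06). The libraries of the 2 lights did not overlap at either temperature. LHB1B1 showed the largest difference among the 8 members other than LHB1B2, from 7152, 7305 and 7425 CPM to 624, 627 and 874 CPM at 16 °C, that is, 10.3-fold lower (-3.36 ± 0.20, FDR 2.38e-16). It went from 4548, 4597 and 4378 to 2214, 1686 and 1789 CPM at 24 °C (-1.25 ± 0.19, FDR 1.38e-06). CAB2 and CAB3, the pair transcribed from the other strand next to CAB1, differed by -1.73 ± 0.18 and -2.16 ± 0.17 at 16 °C and by -0.79 ± 0.18 and -0.85 ± 0.17 at 24 °C. The LHB1B2 locus was at 19444, 20816 and 21168 CPM and at 3351, 3396 and 3945 CPM at 16 °C (-2.52 ± 0.17, FDR 6.34e-15). It was at 17929.9, 17699.7 and 16143 CPM in dim light and 16867, 14203 and 14233 CPM at 24 °C, where it did not pass the test (-0.19 ± 0.16, FDR 0.421).

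The LHCB1 sum was at 95919, 100812 and 110413 CPM in cool dim light and at 21083, 20699 and 25955 CPM in bright light, 4.53-fold lower (-2.18 ± 0.16, FDR 5.87e-14). At 24 °C it was at 62143, 61079.5 and 60046 CPM in dim light and 34320.2, 28890 and 28618 CPM in bright light (-0.997 ± 0.16, FDR 3.87e-06). Among the LHCB2 copies, LHCB2.1 was at 2262, 2032 and 2239 CPM in cool dim light and at 798, 811 and 945 CPM in bright light (-1.36 ± 0.17, FDR 1.75e-08). LHCB2.2 differed by -1.50 ± 0.17, FDR 2e-09. LHCB2.3, the most diverged copy, was at 753, 739.6 and 855 CPM in dim light and 655, 712 and 765 CPM in bright light. These ranges overlapped and the difference did not pass the test (-0.14 ± 0.15, FDR 0.505). Under total-count scaling LHCB2.3 passed as higher in bright light (0.30, FDR 0.038). The LHCB2 sum was at 5271, 4972 and 5499.8 CPM and 2217, 2294 and 2599 CPM (-1.15 ± 0.16, FDR 2.47e-07) at 16 °C. At 24 °C it was at 9359, 8691 and 8163 CPM in dim light and 5788, 4981 and 5168 CPM in bright light (-0.72 ± 0.16, FDR 0.000554). LHCB3 was at 2719, 2618 and 2821 CPM and 1119.6, 1137 and 1113 CPM at 16 °C (-1.28 ± 0.13, FDR 2.16e-10). At 24 °C it was at 3806, 3599 and 3334 CPM in dim light and 2794, 2795 and 2539.7 CPM (-0.40 ± 0.13, FDR 0.0157). That call was lost without Col-0 warm dim replicate 1 or Col-0 warm bright replicate 3 (-0.36 to -0.35, FDR 0.0712 to 0.0764), and under total-count scaling (-0.11, FDR 0.381). The rRNA share moved with light, from 7.12% to 12.9% of counts in cool dim light to 0.711% to 1.17% in bright light. With it as a covariate, the differences at 16 °C were -1.76, FDR 1.86e-10 for the LHCB1 sum and -0.72, FDR 0.00144 for the LHCB2 sum. At 24 °C the LHCB1 sum stayed called (-0.67, FDR 0.00119) and CAB2 (-0.39), LHCB2.1 (-0.33), LHCB3 (-0.19) and the LHCB2 sum (-0.39, FDR 0.0783) did not. The green-tissue markers, in contrast to the members, summed to 51311 to 58504 CPM in cool dim light and 72902 to 77683 CPM in cool bright light.

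In dim light in Col-0, the LHCB1 genes that passed the test were lower at 24 than at 16 °C, whereas the LHCB2 genes and LHCB3 were higher. Here 3 of the 9 genes (CAB1, CAB2 and LHB1B1) were lower and 4 (LHCB2.1, LHCB2.2, LHCB2.3 and LHCB3) higher, against 11.4% and 11.4% of all genes. CAB1 differed by -0.70 ± 0.16, FDR 0.00139, and its libraries at 24 °C were all below those at 16 °C. LHB1B1 differed by -0.69 ± 0.18, FDR 0.00451, and CAB2 by -0.67 ± 0.18, FDR 0.00441. CAB3, which did not pass, differed by -0.43 ± 0.17, FDR 0.0576. The LHCB1 sum was 1.68-fold lower at 24 °C (-0.74 ± 0.16, FDR 0.000414). LHCB2.1 went the other way, from 2262, 2032 and 2239 CPM at 16 °C to 3893, 3619 and 3376 CPM at 24 °C (0.74 ± 0.17, FDR 0.000876), without overlap. LHCB2.2 was at 2256, 2200.2 and 2406 CPM at 16 °C and 4335, 4049.5 and 3709 CPM at 24 °C (0.82 ± 0.17, FDR 0.000263). The LHCB2 sum was 1.67-fold higher at 24 °C (0.74 ± 0.16, FDR 0.000596). LHCB2.3 (0.46 ± 0.15, FDR 0.0213) and LHCB3 (0.40 ± 0.13, FDR 0.0215) were called too, without overlap of their libraries. The LHCB2.3 call was lost without Col-0 cool dim replicates 1 or 2 or Col-0 warm dim replicate 1 (0.42 to 0.43, FDR 0.0649 to 0.0825). That of LHCB3 was lost without Col-0 cool dim replicates 1 or 2 or Col-0 warm dim replicates 1 or 2 (0.35 to 0.40, FDR 0.0504 to 0.092). The green-tissue markers in Col-0 in dim light summed to 51311 to 58504 CPM at 16 °C and 43298 to 46367 CPM at 24 °C.

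In bright light in Col-0 no member was called lower at 24 °C than at 16 °C. There, 5 of the 9 genes (CAB3, LHB1B1, LHCB2.1, LHCB2.2 and LHCB3) were higher at 24 °C against 18.9% of all genes called higher. The members' median was 1.27 against 0.01 for all genes. LHB1B1 was at 624, 627 and 874 CPM at 16 °C and at 2214, 1686 and 1789 CPM at 24 °C, 2.68-fold higher (1.42 ± 0.19, FDR 7.93e-08). CAB3 differed by 0.88 ± 0.17, FDR 5.39e-05, while CAB1 (0.33 ± 0.16, FDR 0.119) and CAB2 (0.27 ± 0.18, FDR 0.251) did not pass. CAB1 passed under total-count scaling (0.31, FDR 0.012) and with the rRNA share as a covariate (0.37, FDR 0.0257). The LHB1B2 locus rose 4.24-fold, from 3351, 3396 and 3945 CPM to 16867, 14203 and 14233 CPM (2.08 ± 0.17, FDR 7.62e-13). The LHCB1 sum was higher by 0.44 ± 0.16, FDR 0.0249. That call was lost without Col-0 cool bright replicates 1 or 2 or Col-0 warm bright replicate 1 (0.35 to 0.39, FDR 0.0985 to 0.138). LHCB2.1 (1.43 ± 0.17), LHCB2.2 (1.42 ± 0.17) and LHCB3 (1.27 ± 0.13, FDR 2.98e-10) were higher. Among the LHCB2 copies, LHCB2.3 did not pass (0.28 ± 0.15, FDR 0.154). The temperature difference itself changed with light for 5 of the 9 genes, each with a higher value in bright light, against 4.55% of all genes. They were CAB1 (1.02 ± 0.23), CAB2 (0.94 ± 0.25), CAB3 (1.31 ± 0.24), LHB1B1 (2.12 ± 0.26, FDR 2.34e-07) and LHCB3 (0.87 ± 0.18). The interaction of the LHCB1 sum was 1.18 ± 0.22, FDR 0.000294 and that of the LHB1B2 locus 2.33 ± 0.24, FDR 2.49e-09. LHCB2.1 (0.69 ± 0.23, FDR 0.0609), LHCB2.2 (0.60 ± 0.23, FDR 0.122) and LHCB2.3 (-0.19 ± 0.21, FDR 0.721) did not pass the test of the interaction, nor did the LHCB2 sum (0.43 ± 0.23, FDR 0.293). LHCB2.1 passed it under total-count scaling (0.54, FDR 0.0225). The green-tissue markers in Col-0 in bright light were lower at 24 °C, with sums of 72902 to 77683 CPM at 16 °C and 49324 to 53123 CPM at 24 °C. The part of these markers in the members' differences was not tested.

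**Figure D3:**
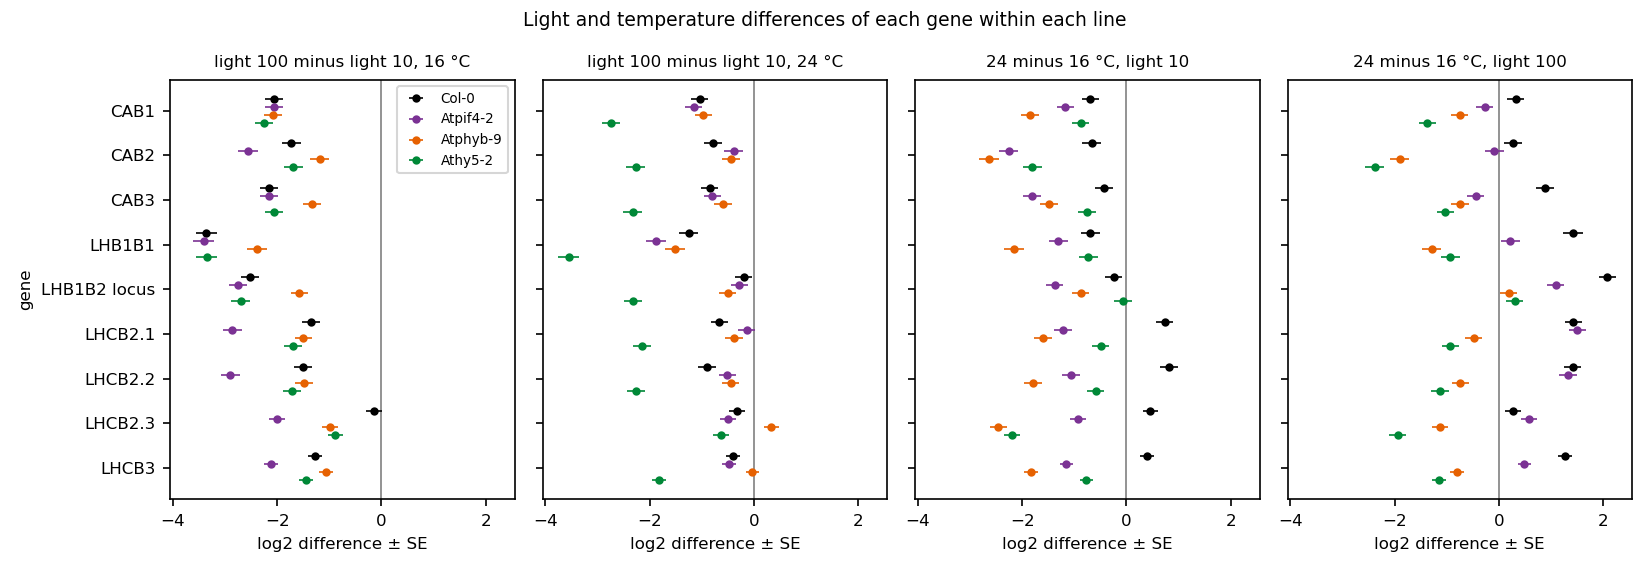
Log2 differences ± SE (horizontal axis) of each gene for light at each temperature and for temperature at each light, 1 colour per line; LHB1B2 locus is the LHB1B2 row with its antisense row. In Col-0 (black) the LHCB1 copies lie left of 0 and the LHCB2 copies and LHCB3 right of 0 for temperature in dim light, while in Atphyb-9 (orange) and Athy5-2 (green) all 8 genes other than LHB1B2 lie left of 0 in both temperature panels.

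The other antenna genes of Col-0 are given from lists, which were drawn up with earlier results of these data known. Of all genes tested, 19.6% were called lower for light at 16 °C and 14.4% for light at 24 °C. For temperature, 18.9% were called higher in bright light, and 11.4% in each direction in dim light. The shares for the opposite directions are not given here. A count of 1 in a list of 6 is near these shares, and no test of whole lists was run. At 16 °C, 4 of the 6 genes of the minor photosystem II antenna and 4 of the 6 photosystem I antenna genes were lower in bright light, and 1 of each was higher. LHCB4.3, a CP29-type antenna gene, was the minor-antenna gene that rose, and it rose at 24 °C as well (3.13 ± 0.24, FDR 6.72e-13). LHCB4.2, another CP29 gene, differed by -1.19 ± 0.16, FDR 9.91e-08. The photosystem I antenna genes LHCA4 and LHCA1 differed by -1.63 ± 0.15, FDR 2.38e-11 and by -1.11 ± 0.12, FDR 1.15e-09. At 24 °C, 1 minor-antenna gene was higher and 2 lower in bright light, and none of the 6 photosystem I antenna genes was called. In bright light, 4 of 6 genes of each list were higher at 24 °C and 1 of each was lower. Among the higher were LHCA4 (1.52 ± 0.15, FDR 1.53e-10), LHCA1 (1.27 ± 0.12, FDR 5.45e-11) and LHCB4.2 (1.21 ± 0.16, FDR 7.9e-08). LHCB4.3 fell (-1.31 ± 0.21, FDR 4.76e-06). In dim light, 2 minor-antenna genes were higher at 24 °C and 1 photosystem I antenna gene was lower. Of 12 regulators of LHCB transcription, 1 was higher and 6 were lower in bright light at 16 °C, and 7 were higher and 1 lower at 24 °C in bright light. GLK2, a transcription factor that activates antenna genes, differed by -1.43 ± 0.11, FDR 1.3e-13 for light at 16 °C and by 1.60 ± 0.11, FDR 6.33e-15 for temperature in bright light. PIF4, a transcription factor of the warm and shade responses, differed by -2.13 ± 0.14, FDR 4.23e-15 and by 2.64 ± 0.15, FDR 1.45e-17 in the same comparisons. Of the 6 genes of LHCII import and insertion, 2 were higher and 2 lower for light at 16 °C. CPSRP54, a subunit of the chloroplast signal recognition particle, was at 0.84 ± 0.13, FDR 8.18e-07 and its partner CPSRP43 at -0.59 ± 0.14, FDR 0.000734. Of the 6 genes of LHCII phosphorylation and breakdown, 1 was lower in bright light at 16 °C and 4 were higher and 1 lower at 24 °C. There TAP38, the phosphatase acting on LHCII, was at 0.73 ± 0.09, FDR 1.64e-08. For temperature in bright light, 3 of these 6 were higher, among them STN7, the LHCII kinase (0.65 ± 0.11, FDR 1.61e-05). Of the 6 green-tissue markers, 4 were higher and 1 was lower in bright light at 16 °C, with SBPASE of the Calvin cycle at 0.68 ± 0.09, FDR 1.16e-07.

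The make-up of the families changed with the condition, here given as shares of counts with SD over 3 libraries and no test. CAB1 held 64.2% of LHCB1 counts (with the antisense row) in Col-0 in cool bright light and 46.3% in warm bright light, its extremes over the 16 groups. The LHB1B2 locus moved the other way, from 17.6 ± 0.581% in cool dim light and 13.7 ± 0.346% in cool bright light to 22.2 ± 0.514% in warm dim light and 33.4 ± 0.0927% in warm bright light. In Athy5-2 the same 4 shares were 17.5%, 13.2%, 28.4% and 33.8%. In warm bright light the share was 30.6% in Atpif4-2 and 30.5% in Atphyb-9. In each of the 4 lines the LHB1B2 locus thus had its largest share in warm bright light. LHB1B1 held 6.27 ± 0.229% of LHCB1 counts in Col-0 in cool dim light and 2.71 ± 0.228% in bright light. CAB1 had 9.58 and 23.8 times the counts of LHB1B1 in those groups. CAB2 reached its highest share in Atphyb-9 in cool bright light (19.2 ± 0.190%) and its lowest in Athy5-2 in warm dim light (4.66 ± 0.703%). LHCB2.3 held 14.9 ± 0.628% of LHCB2 counts in Col-0 in cool dim light, 30 ± 0.908% in cool bright light, 12.4 ± 0.751% in warm dim light and 16.2 ± 0.433% in warm bright light. It was also highest in cool bright light in the mutant lines, with 24.3% in Atpif4-2, 21.3% in Atphyb-9 and 25.5% in Athy5-2. Its lowest value was 5.90 ± 0.603% in Athy5-2 in warm dim light. Counts of LHCB1 with the antisense row were 22.2 ± 1.92 times those of LHCB2 in Col-0 in cool dim light, against 10.9 ± 0.414, 8.90 ± 0.320 and 8.50 ± 0.226 times in cool bright, warm dim and warm bright light. The LHCB2 sum was 1.93 ± 0.0268 times LHCB3 in cool dim light in Col-0. Over the 16 groups it ran from 1.26 ± 0.0564 times in Atpif4-2 in cool bright light to 3.02 ± 0.187 times in Atphyb-9 in warm dim light.

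**Figure D4:**
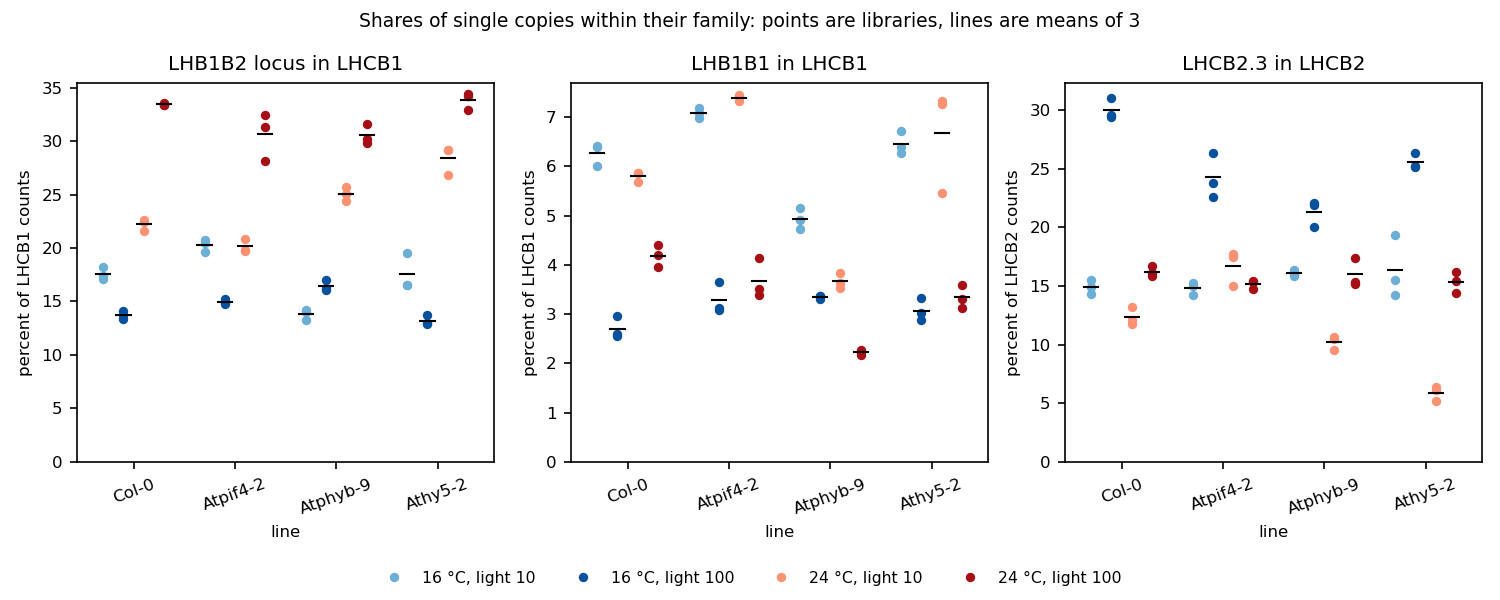
Shares of family counts in percent (vertical axis) of the LHB1B2 locus and of LHB1B1 in LHCB1 (with the antisense row) and of LHCB2.3 in LHCB2, by line; points are libraries, black lines are means of 3, and colours mark temperature and light. The LHB1B2 locus has its highest share in warm bright light (dark red) in each line, up to 33.8% in Athy5-2, and LHCB2.3 has its highest share in cool bright light (dark blue), 30% in Col-0.

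Set against the other antenna, the counts of the 9 genes were higher in dim light than in bright light at each temperature in each line. In Col-0 their summed counts were 8.82 ± 0.406 times those of the 6 photosystem I antenna genes in cool dim light, 4.48 ± 0.458 times in cool bright light, 5.35 ± 0.139 times in warm dim light and 3.20 ± 0.0896 times in warm bright light. Against the 6 minor-antenna genes the same ratios were 10.5 ± 0.520, 4.17 ± 0.272, 6.30 ± 0.0258 and 4 ± 0.183. In Athy5-2 the ratio to the photosystem I antenna spanned the widest range, from 8.43 ± 0.492 in cool dim light to 2.72 ± 0.154 in warm bright light. These ratios were not tested, and they leave out the antisense row.

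At 16 °C most of the members called in the mutant lines were higher than in Col-0. The comparisons of the 3 lines share the Col-0 libraries. In cool dim light, 8 of the 9 genes were higher in Atpif4-2 (10.1% of all genes called higher), 5 in Atphyb-9 (14.7%) and 8 in Athy5-2 (14.6%), and none was lower. In cool bright light the counts were 3 higher and 1 lower in Atpif4-2 (1.93% and 2.85%), 7 higher in Atphyb-9 (7.23%) and 8 higher in Athy5-2 (13.3%). In warm dim light, 2 were lower in Atpif4-2 (2.22%), 8 were lower in Atphyb-9 (9.01%), and 2 were higher and 1 lower in Athy5-2 (22.1% and 24.3%). In warm bright light, 0 of 9 were called in Atpif4-2 by edgeR and 0 by DESeq2 (0.447% of all genes called in either direction), with 3 at an unadjusted p under 0.05. Under total-count scaling CAB3 passed as lower in Atpif4-2 in warm bright light (-0.48, FDR 0.0468) and in warm dim light (-0.43, FDR 0.0314). In warm bright light 7 were lower in Atphyb-9 (5.94%) and 8 in Athy5-2 (7.63%). Marker sums differed as well. In cool dim light the 10 root markers summed to 147 to 187 CPM in Col-0, 224 to 311 in Atpif4-2, 329.7 to 450.4 in Atphyb-9 and 128 to 216 in Athy5-2, with none of the 10 at 0. The 6 green-tissue markers, in the same order, summed to 51311 to 58504, 69937 to 87107, 82068 to 93043 and 83718 to 108546 CPM. In warm bright light these green-tissue sums were 49324 to 53123, 55833 to 63728, 43109 to 48726 and 36104 to 45532 CPM. The part of either set of markers in the results was not tested.

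**Figure D5:**
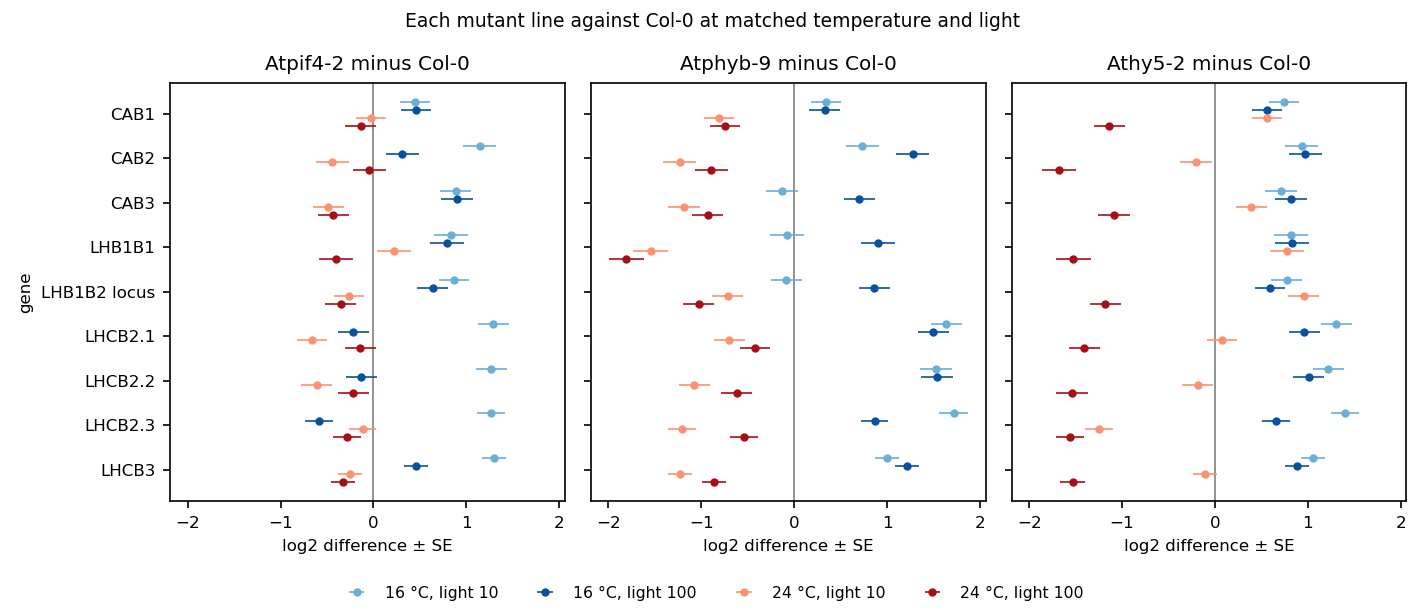
Log2 differences ± SE (horizontal axis) of each mutant line against Col-0, by gene and condition. In Atphyb-9 the blue points (16 °C) lie mostly right of 0 and the red points (24 °C) left of 0, and in Athy5-2 the points in warm bright light (dark red) lie between -1.09 (CAB3) and -1.68 (CAB2).

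In Atpif4-2, LHCII transcripts in cool dim light were higher than in Col-0, most for LHCB2 and LHCB3. The LHCB2 sum was at 13178, 12128 and 12858 CPM in this line against 5271, 4972 and 5499.8 CPM in Col-0, 2.42-fold higher (1.28 ± 0.16, FDR 6.49e-07) and without overlap. LHCB3 was at 6439, 7018 and 6571 CPM (1.30 ± 0.13, FDR 5.2e-09). The sum of LHCB1 was at 155856, 135130 and 158087 CPM (0.55 ± 0.16, FDR 0.0105). Among the LHCB1 copies the difference was largest for CAB2 (1.14 ± 0.18) and smallest for CAB1 (0.45 ± 0.16, FDR 0.0452). The CAB1 call was lost without Atpif4-2 cool dim replicates 1 or 3 or Col-0 cool dim replicates 1, 2 or 3 (0.40 to 0.49, FDR 0.0745 to 0.133). With the replicate number as a block it also missed the threshold (0.44, FDR 0.0508), as it did under total-count scaling (0.18, FDR 0.165). In cool bright light, CAB3 was higher (0.90 ± 0.17, FDR 0.000453) and kept its call without any 1 library. LHB1B1 (0.79 ± 0.18), LHCB3 (0.45 ± 0.13) and, downward, LHCB2.3 (-0.59 ± 0.15) passed, but lost their calls without single libraries. The LHB1B1 call was lost without Atpif4-2 cool bright replicate 1 or Col-0 cool bright replicates 1 or 2 (0.58 to 0.71, FDR 0.05 to 0.111). That of LHCB2.3 was lost without Atpif4-2 cool bright replicates 1 or 3 or Col-0 cool bright replicate 3 (-0.56 to -0.53, FDR 0.0564 to 0.0864). The LHCB3 call was lost without Atpif4-2 cool bright replicates 1, 2 or 3 or Col-0 cool bright replicates 1, 2 or 3 (0.44 to 0.47, FDR 0.0698 to 0.12). The LHCB1 sum in that condition was at 36882, 27712 and 30083 CPM against 21083, 20699 and 25955 CPM and missed the threshold (0.48 ± 0.16, FDR 0.0663), which it passed without Col-0 cool bright replicate 3 (0.60, FDR 0.0399). In warm dim light, LHCB2.1 (-0.66 ± 0.17, FDR 0.0126) and LHCB2.2 (-0.61 ± 0.17, FDR 0.024) were lower. The first call was lost without Atpif4-2 warm dim replicate 1 or Col-0 warm dim replicate 1 (-0.65 to -0.61, FDR 0.0582 to 0.0751). The second was lost without Atpif4-2 warm dim replicates 1, 2 or 3 or Col-0 warm dim replicates 1 or 2 (-0.63 to -0.56, FDR 0.0585 to 0.116), and with the rRNA share as a covariate (-0.43, FDR 0.0832).

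Within Atpif4-2 the light difference at 16 °C was large in each of the 8 genes other than LHB1B2. There, 8 of 9 were lower in bright light (24.1% of all genes), with a median of -2.56. The LHCB2 sum went from 13178, 12128 and 12858 CPM to 1992, 2034 and 1807 CPM, 6.54-fold lower (-2.71 ± 0.17, FDR 2.5e-16). LHCB2.3, which did not pass in Col-0, differed by -1.997 ± 0.16, FDR 7.54e-14. The difference of the light effect from Col-0, averaged over both temperatures, passed the test for LHCB2.3 alone (-1.01 ± 0.15, FDR 9.88e-05), against 0.219% of all genes called lower. At an unadjusted p under 0.05 there were 4 of 9, and DESeq2 called 2 of 9. Without Atpif4-2 warm bright replicate 3, LHCB3 (-0.52, FDR 0.0441) and the LHCB2 sum (-0.66, FDR 0.0429) passed as well. LHCB2.1, LHCB2.2, LHCB3 and the LHCB2 sum also passed as lower under total-count scaling (-0.59 to -0.45, FDR 0.00053 to 0.0136) and with the rRNA share as a covariate (-0.75 to -0.56, FDR 0.00154 to 0.00969). At 24 °C, 6 of 9 were lower in bright light (10.3%), among them LHB1B1 (-1.88 ± 0.19), CAB1 (-1.16 ± 0.16) and CAB3 (-0.80 ± 0.17), whose calls held without any 1 library. LHCB2.2 (-0.51 ± 0.17) lost its call without Atpif4-2 warm dim replicates 2 or 3 or Atpif4-2 warm bright replicates 1 or 2 (-0.50 to -0.42, FDR 0.0611 to 0.133). LHCB2.3 (-0.49 ± 0.15) lost its call without Atpif4-2 warm dim replicate 2 or Atpif4-2 warm bright replicates 1 or 2 (-0.44 to -0.41, FDR 0.0672 to 0.0977) and under total-count scaling (-0.32, FDR 0.0628). LHCB3 (-0.48 ± 0.13) lost it without Atpif4-2 warm bright replicate 2 (-0.36, FDR 0.0805). For temperature in dim light, 8 of 9 were lower at 24 °C (13.9%), including the LHCB2 copies and LHCB3, which were higher in Col-0. The LHCB2 sum differed by -1.10 ± 0.16, FDR 1.27e-06 against 0.74 ± 0.16 in Col-0, and LHCB3 by -1.15 ± 0.13, FDR 6.77e-09. In bright light, 4 of 9 were higher at 24 °C (16.2% of all genes). These were LHCB2.1 (1.51 ± 0.17), LHCB2.2 (1.33 ± 0.17), LHCB2.3 (0.58 ± 0.15) and LHCB3 (0.49 ± 0.13). CAB3 was lower (-0.45 ± 0.17), against 14.2% of all genes. The CAB3 call was lost without Atpif4-2 cool bright replicates 1 or 3 or Atpif4-2 warm bright replicates 1 or 2 (-0.47 to -0.35, FDR 0.0623 to 0.169). The LHCB3 call was lost without Atpif4-2 warm bright replicate 3 (0.36, FDR 0.05). The difference of the temperature effect from Col-0, averaged over both lights, was negative and called for 8 of 9 genes (6.28% of all genes), from -0.53 ± 0.16 for CAB1 to -1.35 ± 0.17, FDR 4.14e-07 for CAB3. The CAB1 call was lost without Atpif4-2 cool bright replicate 1, Atpif4-2 warm bright replicate 2 or Col-0 warm bright replicate 1 (-0.51 to -0.46, FDR 0.0504 to 0.0682), and the LHCB2.3 call (-0.54) under total-count scaling (-0.34, FDR 0.062). The sums differed by -0.62 ± 0.16, FDR 0.00608 for LHCB1 and -0.87 ± 0.16, FDR 0.000223 for LHCB2. For the LHCB2 copies this average came mainly from dim light. In bright light alone their temperature differences in Atpif4-2 (1.51, 1.33 and 0.58) were near or above those in Col-0.

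In Atphyb-9, the members called were higher than in Col-0 at 16 °C and lower at 24 °C. In cool dim light the LHCB2 sum was at 16871, 17681 and 13287 CPM against 5271, 4972 and 5499.8 CPM, 3.04-fold higher (1.60 ± 0.16, FDR 4.54e-10). LHCB3 was at 5359, 5709 and 5233 CPM (0.999 ± 0.13, FDR 1.26e-07), and neither set of libraries overlapped Col-0. Of the LHCB1 copies CAB2 was higher (0.74 ± 0.18, FDR 0.00144). CAB1 (0.34 ± 0.16), CAB3 (-0.13 ± 0.17) and LHB1B1 (-0.08 ± 0.18) did not pass, nor did the LHCB1 sum (0.23 ± 0.16, FDR 0.272). Under total-count scaling CAB3 (-0.48, FDR 0.000958) and LHB1B1 (-0.43, FDR 0.0122) passed as lower. In cool bright light the LHCB2 sum was at 6495, 5308 and 6326 CPM against 2217, 2294 and 2599 CPM (1.35 ± 0.16, FDR 5.44e-08). CAB2 had the largest difference among LHCB1 copies (1.28 ± 0.18, FDR 1.47e-06). The LHCB1 sum there was higher by 0.54 ± 0.16, FDR 0.0145. That call was lost without Atphyb-9 cool bright replicates 1 or 3 or Col-0 cool bright replicates 1 or 2 (0.47 to 0.52, FDR 0.054 to 0.0864). In warm dim light all 8 genes other than LHB1B2 were lower, from -0.70 ± 0.17 for LHCB2.1 to -1.54 ± 0.19 for LHB1B1. The LHCB1 sum was at 39353, 30184 and 26503 CPM against 62143, 61079.5 and 60046 CPM (-0.93 ± 0.16, FDR 4.08e-05). The rRNA share of these Atphyb-9 libraries was 12.6% to 26.1%, against 2.73% to 5.69% in Col-0. The 8 calls held with that share as a covariate. In warm bright light, LHB1B1 was at 667, 529 and 429.8 CPM against 2214, 1686 and 1789 CPM, 3.5-fold lower (-1.81 ± 0.19, FDR 4.94e-09). LHCB2.1 did not pass (-0.42 ± 0.17, FDR 0.0973). It passed as lower without Atphyb-9 warm bright replicate 1 (-0.58, FDR 0.0409) and with the rRNA share as a covariate (-0.65, FDR 0.0032). Under total-count scaling it passed as lower too (-0.40, FDR 0.0141). In this condition LHCB2.2 (-0.62 ± 0.17) lost its call without Atphyb-9 warm bright replicate 3 (-0.50, FDR 0.0814). LHCB2.3 (-0.54 ± 0.15) lost it without Atphyb-9 warm bright replicate 3 or Col-0 warm bright replicate 1 (-0.50 to -0.43, FDR 0.0704 to 0.1). The LHCB2 sum (-0.52 ± 0.16, FDR 0.0274) lost it without Atphyb-9 warm bright replicates 2 or 3 or Col-0 warm bright replicates 1 or 3 (-0.54 to -0.43, FDR 0.056 to 0.142).

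Within Atphyb-9, levels of the 8 genes other than LHB1B2 were lower at 24 °C at both lights, and marker sums were lower too. The green-tissue markers summed to 82068 to 93043 CPM at 16 °C and 38571 to 45352 CPM at 24 °C in dim light, and to 85988 to 89809 and 43109 to 48726 CPM in bright light. Green-tissue sums were lower at 24 °C at both lights in Col-0, Atpif4-2 and Athy5-2 as well. The root markers in Atphyb-9 summed to 329.7 to 450.4 and 199 to 249.7 CPM in dim light, and to 236 to 266 and 119 to 161 CPM in bright light. Their part in the members' differences was not tested. In dim light, 8 of 9 genes were lower at 24 °C (12.2% of all genes), with a median of -1.83, and in bright light, 8 of 9 (11.3%), with a median of -0.75. The largest difference in dim light was that of CAB2 (-2.64 ± 0.19, FDR 5.69e-14), from 17663, 18278 and 15735 CPM to 3415, 2562 and 2317 CPM. LHCB2.3 fell from 2765, 2834 and 2108 CPM to 541, 438 and 425 CPM (-2.46 ± 0.16, FDR 3.1e-15). LHCB3 was at 5359, 5709 and 5233 CPM at 16 °C and 1762, 1466 and 1340.2 CPM at 24 °C (-1.84 ± 0.13, FDR 7.39e-14), and none of these ranges overlapped. In bright light CAB2 again had the largest difference (-1.90 ± 0.18, FDR 1.62e-10). The LHCB1 sum differed by -0.94 ± 0.16, FDR 1.61e-05 and the LHCB2 sum by -0.70 ± 0.16, FDR 0.000962. The LHB1B2 locus did not pass in bright light, and its libraries at both temperatures overlapped. Under total-count scaling it passed as higher at 24 °C (0.35, FDR 0.0101). The LHCB2.1 call (-0.49 ± 0.17) was lost without Atphyb-9 cool bright replicates 1 or 3 or Atphyb-9 warm bright replicates 2 or 3 (-0.49 to -0.40, FDR 0.0598 to 0.141). The difference of the temperature effect from Col-0 was negative and called for 8 of 9 genes (12.4% of all genes), from -1.11 ± 0.16 for CAB1 to -2.38 ± 0.17, FDR 3.61e-14 for LHCB2.2. It was -1.27 ± 0.16, FDR 5.32e-08 for the LHCB1 sum and -2.20 ± 0.16, FDR 1.19e-13 for the LHCB2 sum. At 16 °C, 8 of 9 genes were lower in bright light (22.2%), with the LHCB1 sum at -1.87 ± 0.16, FDR 1.61e-12. At 24 °C 5 of 9 were lower (18.4%), of which CAB1 (-0.97 ± 0.16) and LHB1B1 (-1.51 ± 0.19) held under each alternative tried for them. CAB2 (-0.45 ± 0.18) and LHCB2.2 (-0.45 ± 0.17) turned to 0.0223 and 0.0261 under total-count scaling, which shifts this comparison by 0.47, and CAB3 (-0.59 ± 0.17) lost its call there (-0.12, FDR 0.382). With the rRNA share, which moved with light, as a covariate, the 3 calls were lost as well (CAB2 -0.0117, LHCB2.2 -0.0670 and CAB3 -0.16, FDR 0.542 to 0.977). LHCB2.1 (-0.38 ± 0.17, FDR 0.063), LHCB2.3 (0.34 ± 0.15, FDR 0.0733) and the LHCB2 sum (-0.32 ± 0.16, FDR 0.116) did not pass. LHCB2.1 did without Atphyb-9 warm dim replicates 2 or 3 or Atphyb-9 warm bright replicate 1 (-0.55 to -0.46, FDR 0.0151 to 0.0499). LHCB2.3 did without Atphyb-9 warm dim replicate 1 or Atphyb-9 warm bright replicate 3 (0.45, FDR 0.0316 to 0.0346) and the sum without Atphyb-9 warm bright replicate 1 (-0.46, FDR 0.036). LHCB2.3 also passed as higher with the rRNA share as a covariate (0.60, FDR 0.00625) and under total-count scaling (0.81, FDR 1.04e-06). LHCB3 did not pass there (-0.03 ± 0.13, FDR 0.875) and passed as higher under total-count scaling (0.43, FDR 0.000209). The CAB2 call was lost without Atphyb-9 warm dim replicate 1 or Atphyb-9 warm bright replicates 2 or 3 (-0.42 to -0.26, FDR 0.115 to 0.306). The CAB3 call was lost without Atphyb-9 warm dim replicate 1 or Atphyb-9 warm bright replicate 3 (-0.45 to -0.40, FDR 0.0598 to 0.0849), and the LHCB2.2 call without Atphyb-9 warm dim replicate 1 or Atphyb-9 warm bright replicates 2 or 3 (-0.44 to -0.27, FDR 0.0791 to 0.255). The difference of the light effect from Col-0 was called for CAB3 alone (0.54 ± 0.17, FDR 0.0372), against 4.52% of all genes called higher. That call was lost without Atphyb-9 cool dim replicate 3, Atphyb-9 cool bright replicates 1 or 3, Atphyb-9 warm dim replicates 2 or 3, Atphyb-9 warm bright replicates 1 or 2, Col-0 cool dim replicates 2 or 3, Col-0 cool bright replicates 1 or 2, Col-0 warm dim replicates 1 or 3 or Col-0 warm bright replicates 2 or 3 (0.46 to 0.55, FDR 0.0546 to 0.0756). Under total-count scaling CAB2 (0.63), LHB1B1 (0.55), LHCB2.2 (0.43), LHCB3 (0.48) and the LHCB1 sum (0.40) passed as higher too, and CAB2 also with the rRNA share as a covariate (0.49, FDR 0.0254).

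In Athy5-2, the members called were higher than in Col-0 at 16 °C and lower in warm bright light. In cool dim light the LHCB1 sum was at 139091, 185445 and 172860 CPM against 95919, 100812 and 110413 CPM, 1.62-fold higher (0.70 ± 0.16, FDR 0.000892). The LHCB2 sum was at 10850.1, 12680.5 and 14826 CPM (1.28 ± 0.16, FDR 3.85e-07). In cool bright light the LHCB1 sum was at 38267, 39116 and 28567 CPM against 21083, 20699 and 25955 CPM (0.65 ± 0.16, FDR 0.00239). LHCB3 differed by 0.89 ± 0.13, FDR 9.4e-06 and CAB1 by 0.56 ± 0.16, FDR 0.0108. The CAB1 call was lost without Athy5-2 cool bright replicates 1 or 2 or Col-0 cool bright replicates 1 or 2 (0.47 to 0.52, FDR 0.0554 to 0.0737), with the rRNA share as a covariate (0.33, FDR 0.117) and under total-count scaling (0.21, FDR 0.0963). In warm bright light the 8 genes other than LHB1B2 were called lower than in Col-0, against 7.63% of all genes. The LHCB1 sum was at 13864, 13478 and 11841 CPM against 34320.2, 28890 and 28618 CPM, 2.34-fold lower (-1.23 ± 0.16, FDR 2.85e-07). The sum of LHCB2 was at 1962, 1936 and 1805 CPM against 5788, 4981 and 5168 CPM (-1.48 ± 0.16, FDR 1.02e-08). LHCB3 was at 982, 1013 and 815 against 2794, 2795 and 2539.7 CPM (-1.53 ± 0.13, FDR 1.97e-11). These 8 calls held without any 1 library, with the rRNA share as a covariate and under total-count scaling.

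In warm dim light the Athy5-2 libraries had the highest rRNA shares of the 16 groups, 23.3% to 33.4% of counts against 2.73% to 5.69% in Col-0. The values there depended on the scaling, and total counts shift this comparison by -0.75. LHCB2.3 was lower, at 332, 471 and 556 CPM against 1132, 1023 and 1077 CPM (-1.25 ± 0.15, FDR 1.07e-08), without overlap and under each scaling tried. LHB1B1 was higher (0.78 ± 0.18, FDR 0.000598), and with the rRNA share as a covariate it did not pass (0.35, FDR 0.133), nor under total-count scaling (0.03, FDR 0.85). CAB1 was higher (0.56 ± 0.16, FDR 0.00431) but passed as lower under total-count scaling (-0.21, FDR 0.045). Its call was lost with the rRNA share as a covariate (0.18, FDR 0.425) and without Athy5-2 warm dim replicate 3 (0.29, FDR 0.145). The LHCB1 sum, at 66623, 85325 and 112014 CPM against 62143, 61079.5 and 60046 CPM, was higher by 0.53 ± 0.16, FDR 0.0054 and turned to -0.25, FDR 0.0239 under total-count scaling. Its call was lost without Athy5-2 warm dim replicate 3 (0.31, FDR 0.116). Without the same library, CAB2 (-0.52), LHCB2.2 (-0.49) and the LHCB2 sum (-0.45) passed the test as lower, where with it they stood at -0.20, -0.19 and -0.16. CAB3 (0.39 ± 0.17, FDR 0.0519) and LHCB2.1 (0.08 ± 0.16, FDR 0.744) did not pass, and passed as lower under total-count scaling (-0.38, FDR 0.00368 and -0.71, FDR 3.02e-07). CAB2 (-0.995), LHCB2.2 (-0.97), LHCB3 (-0.87) and the LHCB2 sum (-0.94) passed as lower under that scaling as well. With the rRNA share as a covariate, CAB2 (-0.63, FDR 0.00388), LHCB2.2 (-0.55, FDR 0.00906) and the LHCB2 sum (-0.50, FDR 0.0143) passed as lower. The part of the rRNA share in these values was not tested beyond its use as a covariate.

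Within Athy5-2, light and warmth each went with lower LHCII transcript levels. For light, 8 of 9 genes were lower at 16 °C (21.0% of all genes, members' median -1.72) and 8 of 9 at 24 °C (28.0%, median -2.27). At 24 °C the LHCB1 sum went from 66623, 85325 and 112014 CPM to 13864, 13478 and 11841 CPM (-2.75 ± 0.17, FDR 6.17e-17). LHB1B1 differed by -3.55 ± 0.20 and LHCB3 by -1.82 ± 0.13, while LHCB2.3 differed by -0.64 ± 0.15. Under total-count scaling, which shifts this comparison by 1.24, LHCB2.3 passed as higher in bright light (0.63, FDR 1.11e-05), and with the rRNA share as a covariate it did not pass (-0.11, FDR 0.763). The light effect averaged over temperatures was more negative than in Col-0 for 8 of 9 genes (12.7% of all genes), from -0.53 ± 0.15 for LHCB2.3 to -1.15 ± 0.18, FDR 1.56e-05 for LHB1B1. Under total-count scaling CAB2, CAB3 and LHCB2.3 lost this call. For temperature, 8 of 9 were lower at 24 °C in dim light (21.4%, median -0.75) and in bright light (21.7%, median -1.13). The green-tissue markers were lower as well, with sums of 83718 to 108546 CPM at 16 °C and 43904 to 75268 CPM at 24 °C in dim light, and of 92899 to 112663 and 36104 to 45532 CPM in bright light. Their part in the members' differences was not tested. CAB2 (-1.81 ± 0.18 in dim light and -2.38 ± 0.19 in bright light) and LHCB2.3 (-2.19 ± 0.16 and -1.94 ± 0.15) had the largest differences. The LHB1B2 locus did not pass at either light (-0.07 ± 0.16 and 0.31 ± 0.16). It passed under total-count scaling (-0.31, FDR 0.0105 in dim light and 0.85, FDR 5.67e-09 in bright light) and with the rRNA share as a covariate (-0.38, FDR 0.0363 and 0.64, FDR 0.000548). In dim light the LHCB2.1 call (-0.49 ± 0.17) was lost without Athy5-2 cool dim replicate 3 or Athy5-2 warm dim replicates 1 or 2 (-0.45 to -0.29, FDR 0.0526 to 0.179). The LHCB2.2 call (-0.59 ± 0.17) was lost without Athy5-2 warm dim replicate 1 (-0.38, FDR 0.0704). The difference of the temperature effect from Col-0 was negative and called for 8 of 9 genes (16.1%), from -0.94 ± 0.16 for CAB1 to -2.44 ± 0.15, FDR 5.29e-15 for LHCB2.3. It was -1.02 ± 0.16, FDR 2.5e-06 for the LHCB1 sum and -1.91 ± 0.16, FDR 8.95e-12 for the LHCB2 sum. Side by side, the LHCB2 sum had the more negative of these 2 values in each of the 3 lines, which share the Col-0 libraries. The difference between the sums was not tested.

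By a fixed rule, the genes with the pattern most like the LHCB1 sum were named from 13250 genes with a mean of at least 5 CPM, by Pearson's r of log2 CPM over the 16 group means. This is a description over points that share libraries and scaling. The LHCB1 sum was most like PSAF (r = 0.983) and PSAG (0.968), subunits of photosystem I. They were followed by AT1G14580 (0.964), RABE1c (0.962), AT4G10030 (0.959) and PSBO1 (0.958), a subunit of the oxygen-evolving complex. Outside that rule, which named genes for LHCB1 only, the same measure put LHCB4.2 (0.960), LHCA4 (0.944), OHP2 (0.944), AT4G40045 (0.944), LHCA1 (0.937) and LHCB6 (0.933) nearest to the LHCB2 sum. The 4 LHCA and LHCB genes among these encode antenna proteins of photosystem I or minor ones of photosystem II. LHCB3 was most like LHCB5 (0.978), LHCA1 (0.974), LHCA3 (0.970), LHCB6 (0.968), LHCA4 (0.964) and AT1G21500 (0.957). The LHCB1 and LHCB2 sums had r = 0.854 with each other, and LHCB3 had r = 0.952 with the LHCB2 sum and 0.916 with the LHCB1 sum.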

How the data were processed

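RNA-seq of 48 Arabidopsis libraries was used, and the tables of the other 3 species were not used here. Per the labels' protocols, the NucleoSpin RNA Plant kit was used for extraction, and BGI sequenced paired reads of 100 bases on DNBseq. The submitters' processing notes name HISAT2 2.1.0 and FastQC 0.11.5; how reads were counted, on which build and annotation and with which strand setting, is not given in the sources used here. Values as deposited are whole-number counts per gene, not normalized by the authors, for 32833 genes. The 9 members, gene lists and tests were chosen with earlier results of these data known.

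Genes were filtered with edgeR's filterByExpr (minimum count 10), leaving 22828. Counts were scaled by TMM (factors 0.501 to 1.51), and 35 comparisons were tested in 1 fit over 16 groups, with 32 residual degrees of freedom, by edgeR's quasi-likelihood test (edgeR 4.0.16 and limma 3.58.1 in R 4.3.3), with Benjamini-Hochberg adjustment over all genes tested and a threshold of 0.05. Family sums were tested by the same fit on tables in which they replaced their copies, with the library sizes and scaling of the main table. In the alternatives they stood as extra rows beside the copies. Run with the main settings, that form moved log2 differences by at most 2e-04 and changed 0 calls. The common biological coefficient of variation was 0.204. No 2 libraries of the same group agreed within counting noise (lowest chi-square per gene 11.5). Named in the text are all 9 members, the family sums, the 2 genes of each list with the smallest adjusted p among those called in each Col-0 comparison, and the 6 genes most like the LHCB1 sum; values of named genes in other comparisons are given beside them. Alternatives were DESeq2 1.42.0, RLE and total-count scaling, no filter, rRNA rows left out, the rRNA share as a covariate, a replicate block, fits on the compared groups only and leaving out each library. Sequences and gene positions came from RefSeq's TAIR10.1, where 32548 of 32833 identifiers were found. The scripts were tested on simulated data.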

Additional observations from a re-analysis of the deposited data

Results flagged for a closer look

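These are log2 differences between the effects of 1 factor in 2 settings, each past an adjusted p (FDR) of 0.05 by edgeR's quasi-likelihood test of the difference itself. In Col-0 the effect of 24 against 16 °C was higher in bright light than in dim light by 1.02 for CAB1, 0.94 for CAB2, 1.31 for CAB3, 2.12 for LHB1B1, 0.87 for LHCB3, 1.18 for the LHCB1 sum, 2.33 for the LHB1B2 locus and 1.38 for the LHCB1 sum with the antisense row.

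The effect of temperature, averaged over both lights, was lower in each mutant line than in Col-0, and the 3 lines share the Col-0 libraries. In Atpif4-2 the differences were -0.53 for CAB1, -0.97 for CAB2, -1.35 for CAB3, -0.91 for LHB1B1, -0.94 for LHCB2.1, -0.98 for LHCB2.2, -0.54 for LHCB2.3, -1.17 for LHCB3, -0.62 for the LHCB1 sum, -0.87 for the LHCB2 sum, -1.06 for the LHB1B2 locus and -0.76 for the LHCB1 sum with the antisense row. The LHCB2.3 call in this line was lost under total-count scaling (-0.34, FDR 0.062). For the LHCB2 copies in Atpif4-2 the average came mainly from dim light, as their values in bright light were near or above those in Col-0. In Atphyb-9 they were -1.11 for CAB1, -2.07 for CAB2, -1.34 for CAB3, -2.08 for LHB1B1, -2.13 for LHCB2.1, -2.38 for LHCB2.2, -2.16 for LHCB2.3, -2.15 for LHCB3, -1.27 for the LHCB1 sum, -2.20 for the LHCB2 sum, -1.26 for the LHB1B2 locus and -1.32 for the LHCB1 sum with the antisense row. In Athy5-2 they were -0.94 for CAB1, -1.89 for CAB2, -1.11 for CAB3, -1.20 for LHB1B1, -1.80 for LHCB2.1, -1.98 for LHCB2.2, -2.44 for LHCB2.3, -1.79 for LHCB3, -1.02 for the LHCB1 sum, -1.91 for the LHCB2 sum, -0.80 for the LHB1B2 locus and -1.002 for the LHCB1 sum with the antisense row.

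The effect of light, averaged over both temperatures, differed from Col-0 in Athy5-2 by -0.94 for CAB1, -0.72 for CAB2, -0.69 for CAB3, -1.15 for LHB1B1, -0.91 for LHCB2.1, -0.78 for LHCB2.2, -0.53 for LHCB2.3, -0.79 for LHCB3, -0.90 for the LHCB1 sum, -0.86 for the LHCB2 sum, -1.16 for the LHB1B2 locus and -0.97 for the LHCB1 sum with the antisense row. In Atpif4-2 it differed by -1.01 for LHCB2.3, and in Atphyb-9 by 0.54 for CAB3.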

How the results depend on the processing

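Over 385 results and the settings other than leaving out a library, 2988 of 3115 values kept their direction and their side of the threshold, 48 lost the call, 70 gained it and 9 reversed. Values in brackets are log2 differences, with the adjusted p as FDR. Total-count scaling gave all 9 reversals: for Athy5-2 minus Col-0 in warm dim light, CAB1 (-0.21), CAB3 (-0.38), LHCB2.1 (-0.71) and the LHCB1 sum (-0.25, FDR 0.0239); for light at 24 °C in Atphyb-9, CAB2 (0.0223), LHCB2.2 (0.0261) and LHCB3 (0.43); and LHCB2.3 for light at 24 °C in Athy5-2 (0.63) and at 16 °C in Col-0 (0.30). That scaling was built without the composition factor; why the factor differs between groups was not tested. The LHCB1 sum lost its call for Athy5-2 minus Col-0 in warm dim light on the compared groups only (0.54, FDR 0.105) and with the rRNA share as a covariate (0.18, FDR 0.407), and for temperature in dim light in Athy5-2 on the compared groups only (-0.92, FDR 0.0547), where fewer libraries enter. It gained the call for the difference of the light effect in Atphyb-9 with total counts (0.40, FDR 0.00846), and for Atpif4-2 minus Col-0 in cool bright light with DESeq2 (0.47, FDR 0.0451), the rRNA covariate (0.47, FDR 0.0202) and total counts (0.35, FDR 0.0265); the cause was not tested.

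Leaving out 1 library kept 3438 of 3564 values, lost 112 calls, gained 14 and reversed 0. Over these fits the LHCB1 sum ran from 0.31 to 0.69 for Athy5-2 minus Col-0 in warm dim light, from 0.47 to 0.66 for Atphyb-9 minus Col-0 and from 0.36 to 0.60 for Atpif4-2 minus Col-0 in cool bright light, and from 0.35 to 0.55 for temperature in bright light in Col-0. Adding the antisense row to the LHCB1 sum, chosen after seeing the data, kept 35 of 35 calls.

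The replicate numbers did not pair the libraries: deviations from the group means correlated at a median of -0.00983 between same-numbered libraries and 0.00237 between others. With the replicate number as a block, 384 of 385 results were unchanged in call and direction, and CAB1 in Atpif4-2 minus Col-0 in cool dim light missed the threshold (0.44, FDR 0.0508).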
